A study of Mus musculus with 10 samples.

Results

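A set of 10 nuclear genes that copy and transcribe mitochondrial DNA (mtDNA) were followed in gastrocnemius muscle of 10 mice that had all been exposed to cigarette smoke. Of the genes, *Polg*, *Polg2*, *Twnk*, *Ssbp1*, *Mgme1* and *Top1mt* are grouped here as replication genes. *Tfam*, *Tfb1m*, *Tfb2m* and *Polrmt* are grouped as transcription genes, although the product of *Tfb1m* methylates ribosomal RNA of the mitochondrion. The genes were chosen by their known roles, when earlier results of these data were known. They were matched by Ensembl identifier to 10 of the 49315 genes in the count table. All 10 were among the 14714 genes with enough counts to be tested. The levels are CPM, counts scaled by the library size after TMM normalization. Between muscle with a floxed aryl hydrocarbon receptor (AHR) gene and muscle from which it was deleted, 0 of the 10 genes were called different by edgeR (0.0068% of all genes tested were), with log2 fold changes from -0.18 (*Polg2*) to 0.13 (*Tfb1m*). Over the 10 mice, the correlation with the share of counts on mtDNA transcripts was 0.71 for *Twnk* and -0.71 for *Top1mt*, but neither passed the correction for the 10 genes.

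The mitochondrial genome is a small circle of DNA held in many copies per cell and packed by TFAM into nucleoids. Its replication runs on a minimal machine in which the helicase TWNK unwinds the strands, the single-stranded DNA binding protein SSBP1 coats them, and DNA polymerase gamma, made of the catalytic subunit POLG and the accessory subunit POLG2, copies them. Its transcription is carried out by a single-subunit RNA polymerase, POLRMT, which starts at its promoters together with TFAM and TFB2M and which also makes the primers for replication. All these proteins are encoded in the nucleus, and skeletal muscle is one of the tissues most often affected when they are mutated in people.

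The libraries came from male mice on a C57BL6J background that were exposed to cigarette smoke for 16 weeks, on 5 days per week and in 2 sessions of 1 h per day, at 220 ± 80 mg/m3, and RNA was taken 72 h after the last exposure by the labels (the study's text gives a range that ends there). The 5 AHRfl mice (11, 12, 13, 15 and 33) carried the floxed *Ahr* allele, and the 5 AHRmKO mice (8, 9, 19, 22 and 34) were muscle knockouts in which a tamoxifen-activated Cre, fused to altered domains of the estrogen receptor encoded by *Esr1*, is driven by the human ACTA1 promoter. That promoter is active in muscle fibres, so that the other cells of the muscle keep the gene. The study describes the AHRfl mice as littermates without Cre, places the exposure of both genotypes after tamoxifen, and calls the mice aged, a number for the age not being given in the sources used here. Mice kept in room air are not analysed here, so that smoke itself was not compared.

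Total counts were between 30393035 and 37954388 per mouse, at which 3 counts correspond to between 0.079 and 0.0987 CPM before normalization. The targeted gene, *Ahr*, was at 1.33 to 3.13 CPM in AHRfl and 0.927 to 2.17 CPM in AHRmKO mice, and its log2 fold change was -0.35 with a 95% interval from -0.90 to 0.20 (adjusted p = 0.844, edgeR's quasi-likelihood test). These counts cover the whole gene, whereas the floxed part is a single exon, so they check the deletion only in part. The female-specific transcript *Xist* had 44 to 75 counts in 5 of the libraries (AHRfl 11, 15 and 33 and AHRmKO 9 and 22) and 0 to 3 in the other 5, although the mice are described as male and Y-linked genes were counted in all 10. The comparison between genotypes is therefore also given without these libraries, which leaves AHRfl 12 and 13 against AHRmKO 8, 19 and 34. Of the 14714 genes, 1 (0.0068%) passed an adjusted p of 0.05 in edgeR. This was *Esr1*, named after its value was seen, with a log2 fold change of 4.44.

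The stretches before the RefSeq starts of the genes were looked at first, because AHR acts by binding DNA at the core GCGTG of its response element and because NRF1 and GABPA are the classical activators of these genes. RefSeq promoter windows of GRCm38.p6 were found for 9 of the 10 genes, with 2 starts for *Twnk*. In the 250 nt before each start, exact matches on either strand were searched for GCGTG, for the NRF1 core TGCGCA and for the GABPA site CCGGAAG. The AHR core was present in 10 of the 10 windows, against 28.2% of all 32851 windows of this length. In 6 of these 10 windows a GCGTG lay before the whole GENCODE M21 gene, whereas in the other 4 (*Tfam*, *Mgme1*, *Ssbp1* and the second *Twnk* start) it lay only within the gene as GENCODE draws it. The letters CCGGAAG were present in 6 of the 10 against 6.91% of all windows, and TGCGCA in 2 of the 10 against 6.43%. CCGGAAG lay before the whole GENCODE gene in 2 of its 6 windows and only within the gene in the other 4. TGCGCA lay before the gene in 2 of its 2 windows. The G and C content of the 10 windows was between 45.6% and 72%, and the shares over all windows are not matched for it.

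Shown here are the windows of both polymerase gamma subunits and of the 2 transcription genes that held TGCGCA, each read 5′ to 3′ on the strand of its gene and ending before the first annotated transcript. Capitals mark the matches, and a match on the opposite strand reads CACGC or CTTCCGG, whereas the NRF1 core reads the same on both strands. In these 4 windows no matches share a base. The windows lie on the minus strand at chr7:79466363-79466523 (*Polg*), chr11:106779538-106779787 (*Polg2*), chr10:79746582-79746831 (*Polrmt*) and chr1:179546277-179546526 (*Tfb2m*).
Polg: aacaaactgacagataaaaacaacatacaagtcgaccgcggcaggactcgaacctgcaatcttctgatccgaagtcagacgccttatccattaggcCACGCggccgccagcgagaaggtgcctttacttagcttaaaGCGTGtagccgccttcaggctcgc
Polg2: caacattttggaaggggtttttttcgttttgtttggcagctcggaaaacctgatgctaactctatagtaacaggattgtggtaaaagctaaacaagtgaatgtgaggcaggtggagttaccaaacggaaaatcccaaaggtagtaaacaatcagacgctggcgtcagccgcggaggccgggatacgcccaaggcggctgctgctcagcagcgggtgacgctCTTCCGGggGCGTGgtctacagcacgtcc
Polrmt: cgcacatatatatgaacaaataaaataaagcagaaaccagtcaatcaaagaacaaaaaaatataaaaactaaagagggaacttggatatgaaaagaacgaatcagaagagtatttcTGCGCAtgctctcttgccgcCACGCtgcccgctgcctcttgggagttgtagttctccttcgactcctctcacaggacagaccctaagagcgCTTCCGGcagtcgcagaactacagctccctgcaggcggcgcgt
Tfb2m: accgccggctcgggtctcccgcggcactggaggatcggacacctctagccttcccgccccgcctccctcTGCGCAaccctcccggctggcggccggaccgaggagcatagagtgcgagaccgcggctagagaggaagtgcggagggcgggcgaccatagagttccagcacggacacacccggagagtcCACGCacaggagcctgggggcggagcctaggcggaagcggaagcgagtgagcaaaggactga
The part of the *Polg* window shown holds 2 matches to GCGTG, 1 on each strand, and its CCGGAAG lies downstream of the part shown. In *Polg2*, CCGGAAG and GCGTG stand almost side by side close to the start. *Polrmt* is the only gene of the 9 in whose window all 3 motifs were found. These matches describe the sequence only, and binding was not measured.

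The first question was how strongly each gene was used in this tissue. Per length, as TPM over all annotated exons, *Tfb2m* was the highest at 37.2 ± 3.20 (SD, n = 10 mice), above 86.3% of all genes tested. *Tfam* followed at 20.6 ± 1.26, *Top1mt* at 18.7 ± 1.07, *Twnk* at 14.8 ± 1.30, *Polrmt* at 14.1 ± 0.741 and *Mgme1* at 12.1 ± 1.502 TPM. Lower still were *Polg* at 6.84 ± 0.505, *Ssbp1* at 5.73 ± 0.396, *Tfb1m* at 3.95 ± 0.439 and *Polg2* at 1.49 ± 0.200 TPM, the last above only 27.4% of the genes tested. *Twnk* stood above *Polrmt* in 7 of the 10 mice, *Tfam* above *Top1mt* in 9 and *Polrmt* above *Mgme1* in 9, so these neighbours were not separated in every mouse, whereas the other neighbours kept their order in 10 of 10.

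The ends of this order were the same with another length per gene, but the middle was not. When the length of the principal transcript alone was used, an alternative chosen after seeing the data, *Tfb2m* stayed first at 42.6 TPM and *Polg2* last at 4.31 TPM. *Ssbp1* at 10.9 and *Tfb1m* at 10.2 TPM then lay above *Polg* at 9.38 TPM, and *Polrmt* at 17.6 lay above *Twnk* at 17.0 TPM. With this length *Ssbp1* was above *Polg* in 10 of the 10 mice, whereas with all exons it was below *Polg* in 10 of 10. The other swaps were incomplete, with *Polrmt* above *Twnk* in 6 and *Tfb1m* above *Polg* in 6 of the 10 mice. The accessory subunit of polymerase gamma was thus below its catalytic subunit with either length.

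**Figure D1:**
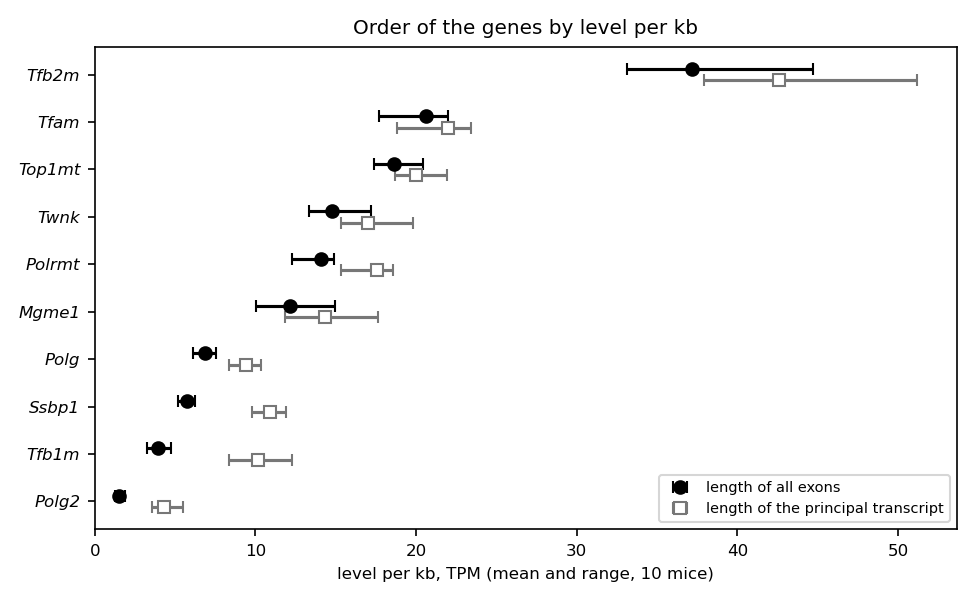
Level per kb of the 10 genes in TPM (x axis), as the mean and range over 10 mice. Black circles use the length of all exons and open squares that of the principal transcript, and *Tfb2m* is highest (37.2 and 42.6 TPM) and *Polg2* lowest (1.49 and 4.31 TPM) with both.

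DNA polymerase gamma was compared next between the genotypes. *Polg* (ENSMUSG00000039176, chr7:79446231-79466362, minus strand), the catalytic subunit, was at 27.1, 28.5, 31.0, 29.3 and 32.7 CPM in AHRfl mice 11, 12, 13, 15 and 33, and at 31.5, 31.6, 32.1, 31.2 and 30.3 CPM in AHRmKO mice 8, 9, 19, 22 and 34; the mice keep this order throughout. The AHRmKO mice lay close together and all within the AHRfl range. The means were 29.7 ± 2.18 and 31.4 ± 0.654 CPM (SD, n = 5 each), with a log2 fold change of 0.08 ± 0.0623 (SE), a 95% interval from -0.06 to 0.21 and an adjusted p of 0.862 (edgeR).

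*Polg2* (ENSMUSG00000020718, chr11:106768253-106779537, minus strand), the accessory subunit that keeps the polymerase on its template, was the most thinly counted of the 10 genes, with 78 to 109 counts per mouse. It was at 2.22, 2.91, 2.79, 3.06 and 3.37 CPM in AHRfl and 2.60, 2.41, 2.51, 2.68 and 2.42 CPM in AHRmKO mice. AHRfl 11 was the lowest of all 10, and the other 4 AHRfl mice were above every AHRmKO mouse. The means of 2.87 ± 0.424 and 2.53 ± 0.115 CPM gave a log2 fold change of -0.18 with an interval from -0.48 to 0.12, the widest of the 10. Its coefficient of variation over all mice was 12.8%, where counting alone gives 10.2%.

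A ratio within each library does not depend on how the library is scaled. The log2 ratio of *Polg2* to *Polg* was -3.58, -3.27, -3.45, -3.23 and -3.26 in AHRfl and -3.57, -3.68, -3.65, -3.51 and -3.62 in AHRmKO mice. Of the AHRfl mice, only number 11 fell among the AHRmKO values. The means were -3.36 ± 0.1497 and -3.61 ± 0.0648 (SD, n = 5 each), and their difference of -0.25 had an exact permutation p of 0.0238 (two-sided). This was 1 of 5 ratios compared, and its adjusted p over the 5 was 0.119 in the same exact test. Without AHRfl 11 the difference was -0.30 and its adjusted p 0.0397 (exact permutation test). Removing the only AHRfl mouse among the AHRmKO values leaves no overlap, so this low p is built in and adds no support. When any other single mouse was dropped, the adjusted p lay between 0.119 and 0.198 (exact permutation test). Among the 5 libraries without *Xist* counts, the ratios of AHRfl 12 and 13 were above those of AHRmKO 8, 19 and 34. Because AHRfl 11 is among the libraries left out, this order was fixed in advance and adds no support.

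**Figure D2:**
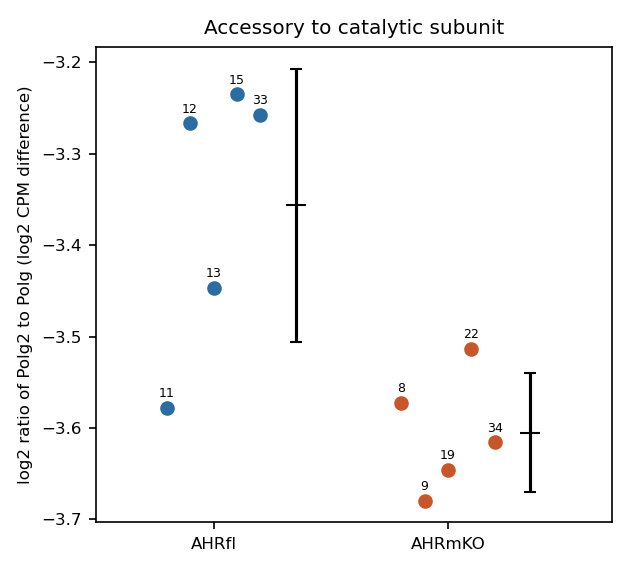
Log2 ratio of *Polg2* to *Polg* within each library (y axis) in 5 AHRfl and 5 AHRmKO mice, with mouse numbers above the points and bars for the mean ± SD; the axis does not start at 0. The other 4 AHRfl mice lie above all AHRmKO mice, and AHRfl 11 at -3.58 lies among them.

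*Twnk* and *Ssbp1*, whose products prepare the template, had the smallest log2 fold changes of the 10 genes in the main fit. *Twnk* (ENSMUSG00000025209, chr19:45005663-45012762, plus strand), the replicative helicase, was at 23.1, 23.1, 25.8, 25.5 and 24.9 CPM in AHRfl and 26.9, 26.7, 24.2, 23.3 and 22.6 CPM in AHRmKO mice. AHRmKO 8 and 9 were the highest of the 10 mice and AHRmKO 34 the lowest, with the AHRfl mice in between. The log2 fold change was 0.01, with an interval from -0.14 to 0.16, and its sign turned under 2 other scalings or covariates and when any of 4 mice was left out.

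*Ssbp1* (ENSMUSG00000029911, chr6:40471352-40484700, plus strand), the single-stranded DNA binding protein, was at 19.4, 20.04, 19.2, 21.6 and 19.9 CPM in AHRfl and 20.3, 18.1, 21.9, 20.2 and 18.2 CPM in AHRmKO mice. The AHRmKO group held both the highest (19) and the lowest (9) value. Its log2 fold change was -0.02, with an interval from -0.17 to 0.13, and without the libraries that held *Xist* counts it was 0.04.

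*Mgme1* and *Top1mt* were the remaining replication genes. *Mgme1* (ENSMUSG00000027424, chr2:144270663-144281227, plus strand) encodes an exonuclease that trims the ends of newly made strands. It was at 14.2, 14.4, 16.5, 17.4 and 18.4 CPM in AHRfl and 19.5, 17.7, 17.3, 15.6 and 17.6 CPM in AHRmKO mice, so that AHRfl 11 and 12 were the lowest and AHRmKO 8 the highest, while the rest were mixed. The log2 fold change was 0.12, with an interval from -0.08 to 0.31. Its coefficient of variation of 10.01%, against 4.09% from counting, was the third largest of the 10 genes.

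*Top1mt* (ENSMUSG00000000934, chr15:75657035-75678800, minus strand) encodes the mitochondrial type I topoisomerase, which relaxes the supercoils that transcription and replication leave in the circle. It was at 16.0, 17.8, 18.2, 15.2 and 14.9 CPM in AHRfl and 14.4, 15.4, 15.4, 14.8 and 16.6 CPM in AHRmKO mice. AHRfl 12 and 13 stood highest, and the other 3 AHRfl mice fell among the AHRmKO mice. Between genotypes the log2 fold change was -0.10, with an interval from -0.27 to 0.06.

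The transcription machine gave a similar picture. *Polrmt* (ENSMUSG00000020329, chr10:79736123-79746581, minus strand), the mitochondrial RNA polymerase, was at 26.9, 28.1, 25.1, 27.0 and 26.9 CPM in AHRfl and 26.7, 28.1, 28.0, 28.3 and 28.8 CPM in AHRmKO mice. AHRfl 13 was the lowest and AHRmKO 34 the highest, and the other mice lay between 26.7 and 28.3 CPM. It varied the least of the 10 genes, with a coefficient of variation of 3.92% where counting gives 3.21%. Its log2 fold change was 0.06, with an interval from -0.06 to 0.18, the narrowest of the 10, and its exact permutation p of 0.111 (two-sided, n = 5 each) was the lowest of the 10.

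*Tfam* (ENSMUSG00000003923, chr10:71225464-71238280, minus strand) encodes the protein that packs mtDNA and bends it at the promoters. It was at 38.9, 41.8, 41.5, 36.8 and 36.1 CPM in AHRfl and 37.6, 36.2, 41.2, 37.3 and 33.2 CPM in AHRmKO mice, and only AHRmKO 34 lay below the AHRfl range. Its log2 fold change was -0.07, with an interval from -0.22 to 0.08. The log2 ratio of *Tfam* to *Polrmt* was 0.54 ± 0.118 in AHRfl and 0.40 ± 0.133 in AHRmKO mice (SD, n = 5 each; exact permutation p = 0.127, adjusted over the 5 ratios 0.317).

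*Tfb2m* and *Tfb1m* encode related proteins with separate duties, the first melting the promoter for POLRMT and the second methylating the small ribosomal RNA of the mitochondrion. *Tfb2m* (ENSMUSG00000026492, chr1:179528055-179546267, minus strand) was at 43.4, 44.6, 43.6, 39.9 and 37.7 CPM in AHRfl and 48.8, 44.7, 45.7, 41.0 and 43.9 CPM in AHRmKO mice. AHRmKO 8, 19 and 9 were above every AHRfl mouse, and the other AHRmKO mice were within the AHRfl range. Its log2 fold change of 0.10, with an interval from -0.05 to 0.24, had the lowest adjusted p of the 10 genes in edgeR, 0.826.

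*Tfb1m* (ENSMUSG00000036983, chr17:3519256-3557781, minus strand) was at 5.999, 5.02, 5.95, 6.01 and 5.32 CPM in AHRfl and 5.52, 5.45, 5.94, 6.78 and 7.27 CPM in AHRmKO mice. AHRmKO 22 and 34 lay above the AHRfl range and the other 3 within it. The log2 fold change was 0.13, with an interval from -0.12 to 0.37. The ratio of *Tfb2m* to *Tfb1m* did not separate the genotypes either, with log2 ratios of 2.87 ± 0.157 and 2.85 ± 0.253 (SD, n = 5 each; exact permutation p = 0.873).

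**Figure D3:**
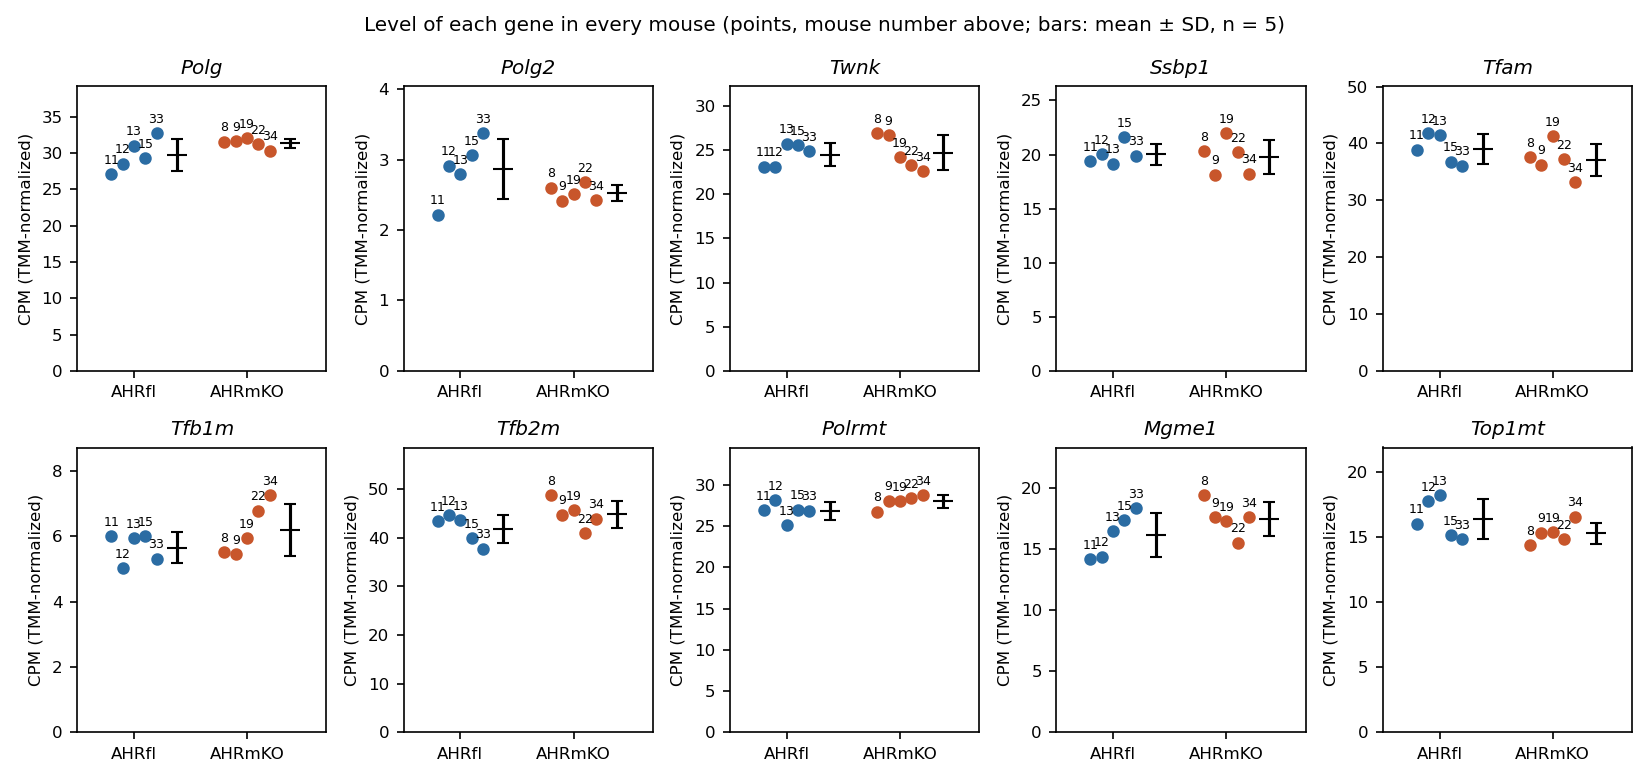
TMM-normalized CPM (y axis, from 0) of each gene in 5 AHRfl and 5 AHRmKO mice, with mouse numbers above the points and bars for the mean ± SD. The genotypes overlap in all 10 panels, and *Polg2*, at 2.22 to 3.37 CPM, is the lowest gene.

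Counted together, edgeR gave an adjusted p under 0.05 to 0 of the 10 genes, against 0.0068% of all genes tested, and the DESeq2 Wald test gave one to 0, against 0.193%. An unadjusted edgeR p under 0.05 was reached by 0 of the 10, against 6.61% of all genes. In 0 of the 10 did the genotypes fail to overlap, against 1.4%. The log2 fold change was above 0 for 6 genes and below 0 for 4 (5 and 5 by library size alone or with 1 surrogate variable), against 51.5% above 0 over all genes, and the median was 0.04 for the 10 and 0.01 for all genes. The intervals show what these libraries could resolve, since their ends lay at the farthest at -0.48 (*Polg2*) and 0.37 (*Tfb1m*) on the log2 scale, or 0.716-fold and 1.30-fold. Without the 5 libraries with *Xist* counts, 0 of the 10 genes were called again, where 1 of all 15097 genes tested was. Of the 10, 7 were above 0 and 3 below, and the median was 0.05, against 0.01 for all genes. The log2 fold change was then 0.23 for *Mgme1*, -0.22 for *Top1mt* and -0.15 for *Tfam*, with an adjusted p of 0.978 each (edgeR). In whole muscle, fewer cells of a kind and less RNA per cell cannot be told apart.

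**Figure D4:**
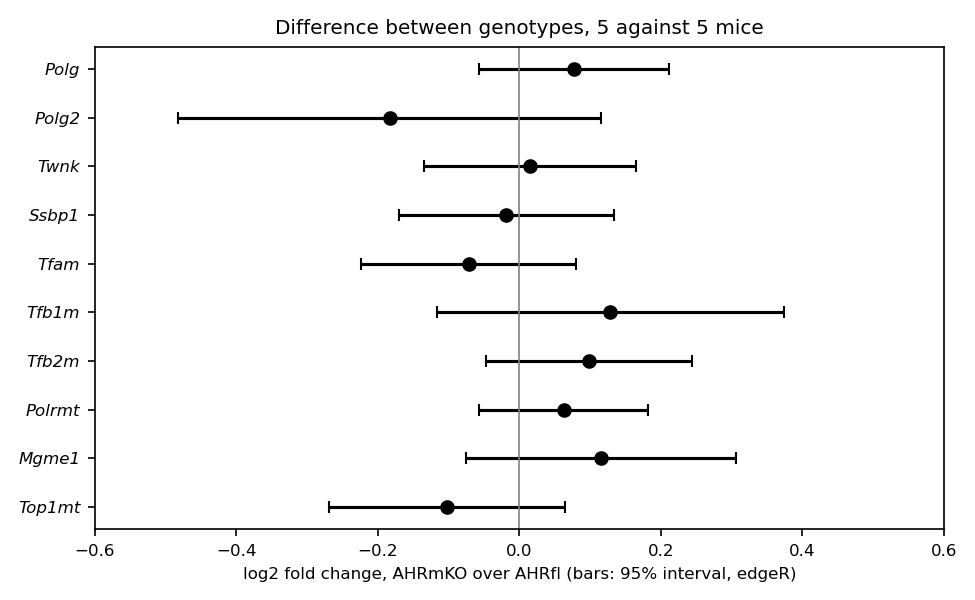
Log2 fold change of each gene, AHRmKO over AHRfl (x axis), from edgeR with 5 mice per genotype, and bars for the 95% interval. Every interval spans 0, from the narrow one of *Polrmt* (-0.06 to 0.18) to the wide one of *Polg2* (-0.48 to 0.12).

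The share of all counts on mtDNA-encoded genes was then read from the same libraries. The share was 10.4%, 7.34%, 9.75%, 11.2% and 10.9% in AHRfl and 11.5%, 10.6%, 9.73%, 9.71% and 8.35% in AHRmKO mice. AHRfl 12 had the lowest share and AHRmKO 8 the highest, and the genotypes overlapped almost entirely. With means of 9.93 ± 1.55% and 9.97 ± 1.17% (SD, n = 5 each), the difference was 0.0432 percentage points (exact permutation p = 0.976, two-sided). Of the 13 mtDNA messenger RNA genes, 7 had a log2 fold change above 0 and 6 below, 0 were called by edgeR (0.0068% of all genes were), and 0 had an unadjusted p under 0.05 (6.61% of all genes had). *mt-Co1*, a subunit of cytochrome c oxidase, held 35.7% of the mtDNA counts, whereas *mt-Atp8*, a subunit of the ATP synthase, was the least counted of the 13 with 84 to 183 counts per mouse. Of the 13 genes, 6 had 84 to 2381 counts per mouse and the other 7 at least 83833 each, so the share mainly reflects these 7. Only uniquely mapped reads were counted, and the part of this in the low counts of the 6 was not tested.

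Mouse by mouse, the correlation with this share was above 0 for some genes and below 0 for others, and 0 of the 10 passed the correction. Over the 10 mice, *Twnk* had a Pearson's r of 0.71 with the share (permutation p = 0.0187, adjusted over the 10 genes 0.109) and a Spearman's rho of 0.73 (permutation p = 0.0199, adjusted 0.165). The high *Twnk* values of AHRmKO 8 and 9 fell together with shares of 11.5% and 10.6%, and the low value of AHRmKO 34 with 8.35%. Without AHRfl 12 and AHRmKO 34, whose shares lay farthest from the median, r was 0.55.

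*Top1mt* went the other way, with an r of -0.71 (permutation p = 0.0218, adjusted 0.109) and a rho of -0.61 (permutation p = 0.0661, adjusted 0.165). It was high in AHRfl 12 and 13 and in AHRmKO 34, the first and last of which had the lowest shares, and lowest in AHRmKO 8, which had the highest. Without the same 2 mice, r was -0.54. When the deviations of each mouse from its genotype mean were used, r was 0.71 for *Twnk* and -0.79 for *Top1mt*, both with an adjusted permutation p of 0.0778.

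Relations of this size were common among genes. Over 14682 nuclear genes, 9.26% had an r above 0.7 and 8.47% an r below -0.7 with the same share, and 16.7% and 16.2% of them had an absolute r larger than those of *Twnk* and *Top1mt*. Scaling by library size alone raised r for each of the 10 genes, to 0.88 for *Twnk* (adjusted permutation p = 0.0034) and to -0.41 for *Top1mt* (adjusted permutation p = 0.452). With 1 mouse left out, *Top1mt* had an r of -0.88 without AHRfl 13 (adjusted permutation p = 0.0301) and of -0.57 without AHRfl 12 (adjusted permutation p = 0.365), and r for *Twnk* was between 0.63 and 0.80.

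The rest of the replication genes had r of 0.55 (*Mgme1*), 0.30 (*Polg*), 0.24 (*Ssbp1*) and 0.10 (*Polg2*), and by library size alone 0.73, 0.66, 0.61 and 0.32. Among the transcription genes, r was -0.46 for *Polrmt* (with a rho of -0.68, permutation p = 0.0355, adjusted 0.165), -0.22 for *Tfam*, -0.16 for *Tfb2m* and -0.13 for *Tfb1m*, and after scaling by library size alone all 4 were above 0. Thus 0 of the 10 relations passed the correction. Without AHRfl 12 and AHRmKO 34, r was 0.59 for *Mgme1*, -0.06 for *Polg*, -0.64 for *Tfam*, -0.60 for *Tfb1m* and -0.12 for *Polrmt*, so that the order of the genes by r depended on these 2 mice. A correlation within the 5 libraries without *Xist* counts was not computed.

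**Figure D5:**
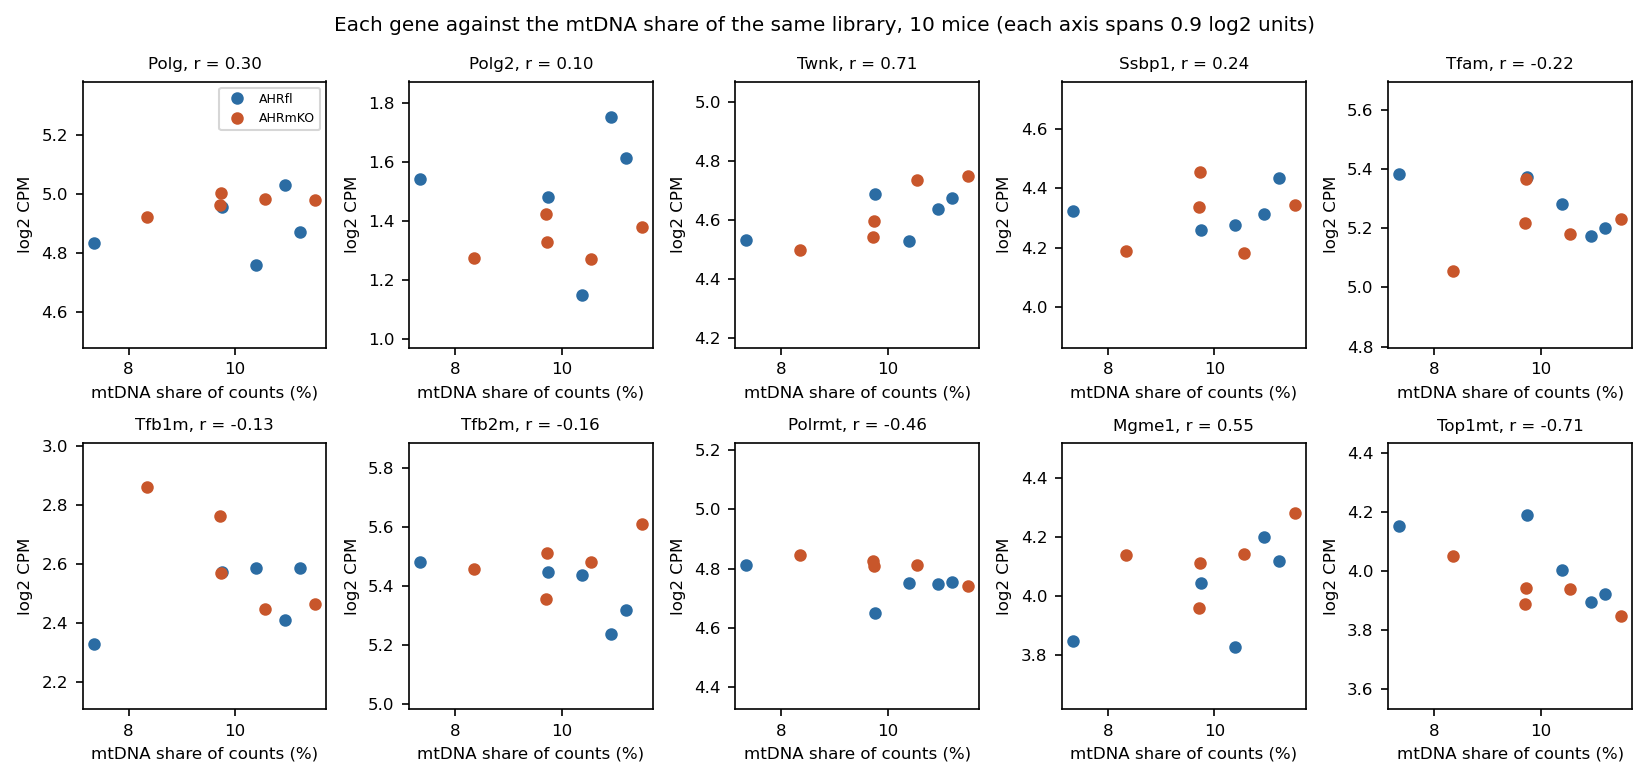
Log2 CPM of each gene (y axes, each spanning the same number of log2 units) against the percentage of counts on mtDNA-encoded genes (x axis) in 10 mice, blue for AHRfl and orange for AHRmKO. The *Twnk* points slope upward (r = 0.71) and the *Top1mt* points downward (r = -0.71), neither past the correction, and those of *Tfb2m* (r = -0.16) and *Polg2* (r = 0.10) lie nearly level or scattered.

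Part of the make-up of the muscle samples moved with the share too. The 6 fast-fibre markers summed to 88748 to 133132 CPM in AHRfl and 99280 to 127047 CPM in AHRmKO mice, and their sum had an r of -0.91 with the mtDNA share. *Myh4*, the type IIb myosin, makes up the largest part of this sum. *Myh1*, the type IIx myosin among the 6, went the other way, at 1251 and 1230 CPM in AHRfl 12 and AHRmKO 34 with the lowest shares and at 4726 and 3944 CPM in AHRmKO 8 and AHRfl 15 with the highest. The 6 slow-fibre markers, at 21.1 to 1450 CPM in AHRfl and 151 to 1668 CPM in AHRmKO mice, had an r of 0.77, and the 3 endothelial markers, at 91.6 to 148 and 106 to 187 CPM, an r of 0.88 (permutation p = 0.00034, 0.00727 and 0.00042). No marker of the 3 lists was at 0 in any mouse, and none of the 3 sums differed between the genotypes beyond their spread (exact permutation, p = 0.532, 0.413 and 0.603). Without AHRfl 12 and AHRmKO 34 the 3 values of r with the share were -0.77, 0.51 and 0.86. Sums for other cell types had r of 0.34 (macrophage), 0.46 (fibroblast), 0.22 (adipocyte), 0.23 (Schwann), -0.23 (satellite cell) and 0.36 (erythroid) with the share. Their unadjusted permutation p lay between 0.184 and 0.542.

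*Top1mt* was also compared with the slow-fibre sum. Its r was -0.83 (permutation p = 0.00184) and its rho -0.89, with adjusted permutation p of 0.0552 and 0.0372 over 30 relations of 10 genes with 3 marker sums that were computed after seeing the data. Without the 2 mice farthest from the median of the slow-fibre sum, r was -0.70, beside -0.75 for *Tfb2m* and 0.70 for *Polg2*, whose r over all 10 mice were -0.28 and 0.26. How many of all genes reach such an r with this sum was not counted, so the relation is not read as particular to *Top1mt*. The 3 sums were taken from those of more cell types, and the correction does not cover this choice. *Twnk* had an r of 0.72 with the endothelial sum (permutation p = 0.0213, adjusted 0.201). The part of fibre type and vessels in the relations of *Twnk* and *Top1mt* to the mtDNA share was not tested. After a slow-fibre covariate was added to the fit, 0 of the 10 genes were called, where 2 of all 14714 genes were, and the log2 fold change of *Top1mt* was -0.06 in place of -0.10.

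The 10 genes were also compared with one another. Among the 45 pairs, r was above 0 in 20 and below 0 in 25, with a median of -0.03, and 0 pairs passed the correction. Pairs of other genes were not counted in this way, so these counts do not set the 10 genes apart from others. An unadjusted permutation p under 0.05 was found for 3 pairs, *Polg* with *Mgme1* (r = 0.76, adjusted permutation p = 0.526), *Twnk* with *Mgme1* (r = 0.65, adjusted 0.746) and *Polg2* with *Tfb2m* (r = -0.63, adjusted 0.746). The link of *Polg* and *Mgme1* rested on few mice, because without the 2 mice farthest from the median of *Polg* its r was 0.24, whereas that of *Twnk* and *Mgme1* was 0.78 without the corresponding 2.

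The wider set of genes around mtDNA gave 71 tested genes in 7 lists, of which edgeR called 0 (0.0068% of all genes). DESeq2 gave an adjusted p to 65 of them and called 0 (0.193% of all genes). An unadjusted edgeR p under 0.05 was found for 8 of them, or 11.3% against 6.61% of all genes, 1 above and 7 below the AHRfl level. The split by direction over all genes at this threshold is not given here, so the direction is not read as particular to these lists. The genotypes did not overlap for 4 of the 71, or 5.63% against 1.4%. The lowest adjusted p of the 71 was 0.606 in edgeR and 0.189 in DESeq2.

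Of the 15 genes of replication and repair, only *Endog*, a mitochondrial endonuclease and the most abundant of the list, had an unadjusted p under 0.05. It was at 34.6 to 40.9 CPM in AHRfl mice and at 13.9, 27.5, 24.8, 27.5 and 37.7 CPM in AHRmKO mice, a log2 fold change of -0.53 (standard error 0.204, adjusted p = 0.691, edgeR). AHRmKO 8 was by far the lowest, and AHRmKO 34 lay within the AHRfl range. Among the 12 genes of nucleotide supply, *Slc25a33*, a carrier of pyrimidine nucleotides across the inner membrane, was at 17.8, 24.8, 17.9, 18.9 and 20.8 CPM in AHRfl and 14.7, 16.5, 13.8, 16.5 and 16.2 CPM in AHRmKO mice. Every AHRmKO mouse was below every AHRfl mouse (exact permutation p = 0.00794, two-sided, the smallest that 5 against 5 mice allow), and the log2 fold change was -0.37 (adjusted p = 0.606, edgeR). *Sucla2*, a subunit of succinyl-CoA synthetase and the most abundant of that list, had a log2 fold change of -0.06.

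Another 3 genes showed the same lack of overlap with smaller differences. *Mrpl12*, a mitochondrial ribosomal protein that also binds POLRMT and the most abundant of the 7 genes of transcription control, was at 97.7 to 107 CPM in AHRfl and 82.7 to 95.2 CPM in AHRmKO mice (log2 fold change -0.17, adjusted p = 0.665, edgeR). *Clpp*, the matrix protease, was at 32.0 to 33.2 and 26.6 to 30.1 CPM (-0.18, adjusted p = 0.629), and *Tomm40*, the pore of the outer membrane translocase, at 43.2 to 47.2 and 36.0 to 42.9 CPM (-0.18, adjusted p = 0.661, edgeR). These 3 genes and *Slc25a33* thus lay 0.17 to 0.37 log2 units lower in AHRmKO muscle without passing the correction.

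The remaining named genes overlapped between genotypes. *Tomm20*, an import receptor of the same translocase, had a log2 fold change of -0.17, and *Vdac1*, the outer membrane channel and the most abundant of the 5 genes of mitochondrial content, of -0.08. Among the 8 upstream regulators, *Esrra*, an orphan nuclear receptor that works with PGC-1 coactivators and the most abundant of that list, had a log2 fold change of -0.15 and *Pprc1*, a coactivator related to PGC-1, of 0.22 (adjusted p = 0.665 and 0.697, edgeR). In the list of RNA processing and stability, 0 of 17 genes had an unadjusted p under 0.05, and its most abundant gene, *Fastk*, an RNA-binding protein of the mitochondrion, had a log2 fold change of 0.01. *Hspa9*, the matrix chaperone that leads the list of nucleoid proteins and proteolysis, also had a log2 fold change of 0.01.

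Some counts may hold reads of neighbouring genes. In the annotation, exons of *Twnk* overlap those of *Mrpl43* on the other strand over 12.6% of their length, and those of *Polg* overlap *Fanci* over 8.57%. The overlap is 6.15% for *Mgme1* with *Snx5*, 4.65% for *Top1mt* with an antisense gene, 3.93% for *Tfb1m* with *Tiam2* and 3.03% for *Polg2* with *Milr1*. Whether the counting used strand is not stated for these libraries, and without strand such reads cannot be told apart.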

How the data were processed

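Poly(A)-selected RNA of 10 gastrocnemius muscles was sequenced as paired ends. After trimming (Trimmomatic 0.36) and alignment to GRCm38 (STAR 2.5.2b), the authors counted unique exonic reads for every Ensembl gene and deposited these raw counts, neither normalized nor pooled, with 1 column per mouse. The Ensembl release and the use of strand are not given in the sources used here. Counts of unique reads leave out reads shared by copies of a gene.

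Names, positions and exon lengths came from GENCODE M21, which holds 49056 of the 49315 identifiers, and promoters from RefSeq. The main test was run in edgeR 4.0.16 under R 4.3.3 (filterByExpr at 10 counts and 15 in total, TMM, quasi-likelihood test with robust estimation, Benjamini-Hochberg over 14714 genes, no covariate), on 5 AHRfl and 5 AHRmKO mice grouped by the labels. The log2 CPM used a prior count of 2. Single values were tested with two-sided exact permutation over all 252 ways to split the mice 5 against 5 (scipy 1.17.1). Correlations were tested by 100000 permutations, or by all permutations where fewer than 10 mice were used. Deviations from genotype means were tested by the 14400 pairings within genotypes. Ratios and the correlations of the 10 genes were adjusted over their family. The exact p of single genes, the mtDNA share and the marker sums were not adjusted. Neither were the permutation p of the marker sums with the share. Adjusted p-values in the text without another name are from edgeR. Totals of 30393035 to 37954388 counts give a counting error of 2.55% (*Tfb2m*) to 10.2% (*Polg2*) per value, and reads carry no molecular identifiers, so these errors and the floors cover counting only. The 95% intervals come from the fit and include the spread between mice. The fit was tested on simulated data.

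The alternatives were DESeq2 1.42.0, limma-voom (limma 3.58.1), other scalings and filters, 1 surrogate variable (sva 3.50.0), each mouse left out, and the libraries with *Xist* counts left out. Covariates for *Xist* and slow fibres, the principal transcript length and the relations to marker sums were added after seeing the data. The 10 genes and the lists were chosen with earlier results of these data known. All 10 genes are named, and from the wider lists the most abundant gene and any with an unadjusted p under 0.05 (up to 4 per list). One listed gene, *Prorp*, was read under its identifier 1110008L16Rik. The mtDNA ribosomal RNA genes were not analysed here.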

Additional observations from a re-analysis of the deposited data

How the results depend on the processing

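The 10 genes had 0 calls under each of the 12 other settings and with each of the 10 mice left out, and their median log2 fold change stayed between 0.02 and 0.05. No paired analysis was possible because the labels give no litter, although the study describes littermates. The number of genes called over the whole table was 21 with DESeq2, 5 without a filter and 2 with the slow-fibre covariate, and 1 to 6 with a mouse left out, 6 without AHRmKO 34. The log2 fold change of *Twnk* was -0.0018 by library size alone, -0.0087 with 1 surrogate variable and -0.0171 to 0.0451 with a mouse left out. That of *Ssbp1* was 0.0416 without the *Xist* libraries and -0.0547 to 0.0117 with a mouse left out. Other log2 fold changes kept their sign with a mouse left out, at 0.05 to 0.11 for *Polg*, 0.07 to 0.16 for *Mgme1*, -0.14 to -0.06 for *Top1mt* (-0.06 with 1 surrogate variable), -0.11 to -0.03 for *Tfam*, 0.07 to 0.17 for *Tfb1m*, -0.26 to -0.12 for *Polg2*, 0.06 to 0.13 for *Tfb2m* and 0.04 to 0.08 for *Polrmt*. The difference in mtDNA share was -0.603 percentage points without AHRfl 12 and up to 0.448 without another mouse. The number of relations to the share past the threshold was 1 by library size alone and 0 to 1 with a mouse left out, 1 without AHRfl 13. By library size alone, r was 0.240 for *Tfam*, 0.170 for *Tfb1m*, 0.321 for *Tfb2m* and 0.333 for *Polrmt*. Without the 2 mice farthest from the median share it was -0.0572 for *Polg*. With a mouse left out, r ranged from -0.0944 to 0.393 for *Polg2*, from -0.720 to 0.165 for *Tfam*, from -0.808 to 0.229 for *Tfb1m*, from -0.549 to 0.0237 for *Tfb2m*, from 0.0238 to 0.550 for *Polg*, from 0.300 to 0.757 for *Mgme1*, from 0.0343 to 0.388 for *Ssbp1* and from -0.757 to -0.329 for *Polrmt*. The number of ratios past the threshold was 0 to 1, 1 without AHRfl 11, and the genotype difference ranged from -0.0940 to 0.0428 for *Tfb2m* to *Tfb1m*, from -0.0788 to 0.0245 for *Ssbp1* to *Twnk* and from -0.174 to -0.0863 for *Tfam* to *Polrmt*, the last without AHRmKO 34. The cause was not tested in any of these cases. The ratio past the threshold without AHRfl 11 was *Polg2* to *Polg*, which no longer overlaps between genotypes once that mouse is removed. Counting gives 10.2% of error per value for *Polg2* and 2.55% to 6.90% for the other 9 genes.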
